A study of Mus musculus with 8 samples.

Results

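Mtdh, Snd1, Ywhaz, Azin1 and Stk3 are 5 genes known from work on the survival and growth of cancer cells. They were taken by symbol, through the Ensembl identifier of each row, from a count table of 49585 rows in which each of them had 1 row. RNA was sequenced from murine MA9 leukemias of the bone marrow, an acute myeloid leukemia (AML) by the labels, that were Gata2 f/f (with floxed Gata2 alleles) or Gata2 -/- (Gata2 KO). There were 4 libraries of each genotype, numbered 1 to 4. All 8 were grown in the same medium, with serum, IL-3, IL-6 at 10 ng/mL and SCF at 20 ng/mL. The sources used here do not say how Gata2 was deleted, the age of the mice, or whether the libraries of a genotype came from separate leukemias, mice or cultures, so p-values measure the spread between these libraries, which may be technical.

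Mtdh (metadherin) is a membrane-anchored scaffold protein that binds Snd1, a nuclease-like protein with a Tudor domain that takes part in RNA silencing, splicing and the stability of transcripts. In breast cancer models the complex of both is known to help tumour-initiating cells survive stress, and the stability of Snd1 there depends on Mtdh. Ywhaz encodes the zeta member of the 14-3-3 adaptors, which hold phosphorylated proteins such as Bad away from the mitochondria. Azin1 encodes antizyme inhibitor, which frees ornithine decarboxylase, the enzyme that starts polyamine synthesis, from its antizyme. Stk3 encodes a kinase at the head of the Hippo pathway, which restrains the growth regulators Yap1 and Wwtr1, so its known role runs against growth rather than for survival.

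The contact between Mtdh and Snd1 is known to rest on a short segment of Mtdh in which a pair of tryptophans fills pockets of Snd1. The coding bases of that segment are shown because they are what ties the first 2 genes together. They lie where 3 in-frame TGG codons of Mtdh stand closest together. The stretch is codons 381 to 410 of 579, in exon 8 of the GENCODE M21 transcript, at chr15:34131166-34131255 on the plus strand of GRCm38, with the tryptophan codons 391 and 398 in capitals:
Mtdh codons: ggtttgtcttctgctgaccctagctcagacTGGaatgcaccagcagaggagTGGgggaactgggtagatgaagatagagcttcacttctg
The stretch holds 1 more in-frame TGG, at codon 401, and the whole coding sequence holds 15.

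A RefSeq promoter entry was found for 1 of the 5 genes, Snd1. The 239 bases before its RefSeq start are shown because the Gata2 protein is a DNA-binding factor that reads GATA motifs. GENCODE M21 starts the Snd1 gene further upstream, at chr6:28475139, so this window lies inside the gene as annotated there. The window lies at chr6:28480098-28480336 on the plus strand of GRCm38.p6, and capitals mark ATTGG, which is CCAAT read on the other strand:
Snd1 upstream: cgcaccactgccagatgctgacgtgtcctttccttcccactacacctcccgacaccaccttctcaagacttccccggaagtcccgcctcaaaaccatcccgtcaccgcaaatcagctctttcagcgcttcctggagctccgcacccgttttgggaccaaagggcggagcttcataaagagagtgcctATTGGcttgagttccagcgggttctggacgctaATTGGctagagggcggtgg
The window holds 2 matches to CCAAT, searched on both strands, a motif that 33.0% of 32851 promoter windows of that length hold. It holds 0 matches on either strand to the GATA forms AGATAA and also TGATAA, or to AGATAG and also TGATAG, and 25.9% of the windows hold at least 1 of these.

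Whether a row holds the gene it names had to be checked before any level was read, because the names in much of the table go against known biology. Of 10 ubiquitous genes that lie away from the 5 genes, 7 were under 1 CPM (counts per 1000000 of the library total), and 2 of those had no count in any library. Gapdh had a mean of 104 CPM and Ppia 177 CPM. By contrast, 15 of 15 ubiquitous genes in the stretches around the members on chromosomes 15 and 6 had means of 26.8 to 11212 CPM. They ran from the RNA polymerase subunit Polr2k to the poly(A)-binding protein Pabpc1. The members were chosen because such genes are counted in these stretches, so this contrast was set by the choice. It is no independent check of the members' row names. The Gata2 row held 0, 0, 1 and 1 counts in the Gata2 f/f libraries and 2, 0, 0 and 0 in the Gata2 KO libraries, so it does not check the genotype labels. Of 13 myeloid leukemia markers, 8 were under 1 CPM, with Mpo at 0.320 CPM and Itgam at 0 counts. The highest were the rows named Hoxa9, at 35.7 CPM, and Spi1, at 31.3 CPM. The labelled cell type could therefore not be checked from the markers.

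Along chromosome 15, from March6 to Atp6v1c1, 23 of 42 protein-coding rows had a mean of 20 CPM or more. Mtdh, Stk3, Ywhaz and Azin1 lie between these ends. Over the next 17 protein-coding rows, which span 4.84 Mb past Atp6v1c1 and include the ubiquitously used Slc25a32, Dcaf13, Eif3e and Emc2, no row reached that level and the highest mean was 1.12 CPM. Azin1 ends 173 kb before the end of Atp6v1c1, so it sits near this edge. The edge was chosen after the levels were seen.

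**Figure D1:**
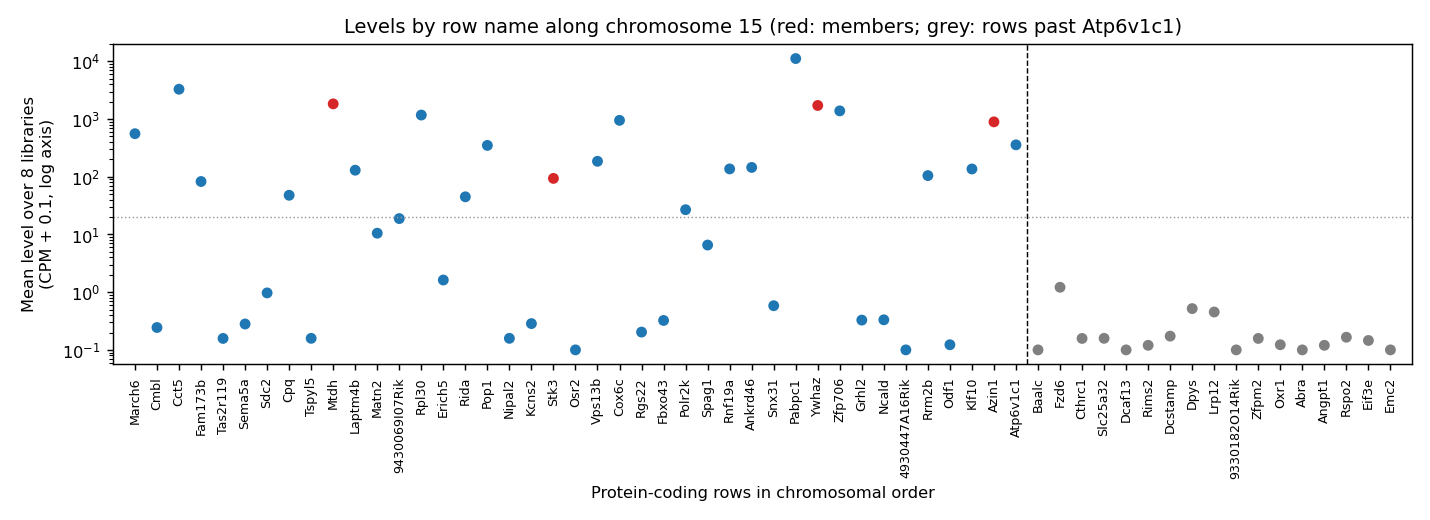
Mean level over the 8 libraries (CPM + 0.1, log axis) of protein-coding rows along chromosome 15 (1 is not shown), by the name of the row; red points are Mtdh, Stk3, Ywhaz and Azin1, grey points are rows past Atp6v1c1, and the dotted line is 20 CPM. High and low rows alternate up to Atp6v1c1, and all 17 rows past it lie at or under 1.12 CPM.

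The 2 libraries numbered 4 stood apart from the other 6 in both genotypes, in ways that touch Snd1 and Azin1 most. Snd1 in replicate 4 was 1.28 times the mean of replicates 1 to 3 in Gata2 f/f and 1.34 times in Gata2 KO. Azin1 in replicate 4 was 0.679 times that mean in Gata2 f/f and 0.668 times in Gata2 KO. For Mtdh the same ratios were 1.00 and 1.00, for Ywhaz 0.961 and 0.934, and for Stk3 1.05 and 0.993. These libraries also had the largest totals, 5480086 and 6237748 counts, where the other 6 ranged from 1610369 to 4129492. The part of depth in these values was not tested. Same-numbered libraries deviated together in all 4 pairs, though weakly in numbers 2 and 3. Their deviations correlated at r = 0.205 and 0.233, where the highest r between different numbers was 0.173. The pairing is thus clearest for number 4. Each comparison is therefore given both with genotype alone in the model and with the replicate number as a block.

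Mtdh was the member that differed most between the genotypes, lower in Gata2 KO, and in edgeR with TMM scaling it passed the test with the replicate block but not with genotype alone. In Gata2 f/f it stood at 1996, 1972, 2122 and 2032 CPM in replicates 1 to 4. In Gata2 KO it stood at 1576, 1716, 1639 and 1651 CPM. The highest Gata2 KO library lay below the lowest Gata2 f/f library, so the groups did not overlap. Their means were 2030 ± 65.8 and 1646 ± 57.0 CPM (SD, n = 4 each), from 3062 to 11137 counts per library. The edgeR log2 fold change, Gata2 KO minus Gata2 f/f after TMM scaling, was -0.29 ± 0.10 (SE; 95% interval -0.50 to -0.07), a ratio of 0.820. Its adjusted p was 0.0858 by edgeR's quasi-likelihood test with Benjamini-Hochberg adjustment over 6580 rows, against a threshold of 0.05.

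With the replicate block the Mtdh log2 fold change was again -0.29, with an SE of 0.06 and a 95% interval of -0.41 to -0.16, and edgeR's adjusted p was 0.000874. Mtdh was lower in Gata2 KO in 4 of 4 same-numbered pairs, by log2 differences in CPM of -0.34, -0.20, -0.37 and -0.30. Because the groups did not overlap, any pairing of the libraries gives 4 of 4, so that count says nothing about the block. DESeq2 with genotype alone gave -0.31 and an adjusted p of 0.0159. Without both libraries numbered 4, edgeR gave -0.28 and an adjusted p of 0.0239. In bulk RNA, fewer cells that express a gene and less of its RNA per cell cannot be told apart.

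The share of all rows that moved sets the scale for this. In edgeR with TMM scaling and genotype alone, 0 of the 5 members passed, where 12.5% of all tested rows did, 3.53% as lower and 8.97% as higher in Gata2 KO. At an unadjusted p under 0.05 there was 1 member, Mtdh, against 26.0% of rows. With the replicate block 1 of 5 passed, again Mtdh, against 35.5% of rows in either direction and 16.7% as lower. DESeq2 also called 1 member, against 10.1% of its 9222 rows, 3.25% as lower. Those rows did not pass through the filter that left 6580 for edgeR, so the shares are of unlike sets. Groups that did not overlap in CPM were found in 19.3% of tested rows, 8.54% with Gata2 KO lower, and in 1 of the 5 members. In the 2 edgeR fits with TMM scaling the members' share past the threshold in either direction was thus not above that of all rows. As lower, 1 of 5 is a larger share than the 16.7% with the block. It is also larger than the 10.1% in either direction by DESeq2. With 5 members nothing about them is read from any of these shares. The median log2 fold change of the 5 members was -0.01, and that of all tested rows was also -0.01.

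**Figure D2:**
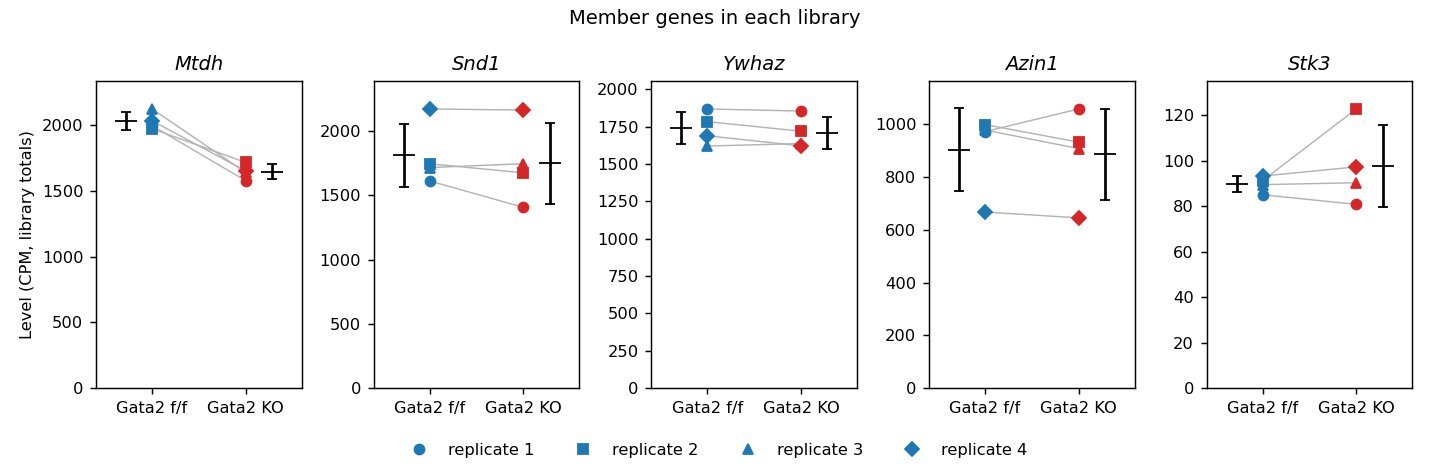
Level of each member gene (CPM, library totals) in each of the 8 libraries; symbols give the replicate number, grey lines join same-numbered libraries, and black bars give mean ± SD (n = 4). The Mtdh groups do not overlap, and the libraries numbered 4 (diamonds) are highest for Snd1 and lowest for Azin1 in both genotypes.

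Snd1, the binding partner of Mtdh, showed no difference between genotypes that exceeded its spread. Snd1 was at 1612, 1746, 1717 and 2173 CPM in Gata2 f/f replicates 1 to 4. The Gata2 KO libraries had 1407, 1676, 1747 and 2164 CPM. Both groups ran from a low replicate 1 to a high replicate 4, and they overlapped over most of their range. Mean levels were 1812 ± 247 and 1749 ± 313 CPM (SD, n = 4 each). The edgeR log2 fold change was -0.03 ± 0.12 (SE), with a 95% interval of -0.31 to 0.24 and an adjusted p of 0.906. With the replicate block the interval narrowed to -0.17 to 0.09, and edgeR's adjusted p was 0.656.

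Because both proteins work in 1 complex, the Mtdh level was also set against the Snd1 level within each library. The log2 ratio of Mtdh to Snd1 in CPM was 0.31, 0.18, 0.31 and -0.10 in the Gata2 f/f libraries numbered 1 to 4, and 0.16, 0.03, -0.09 and -0.39 in Gata2 KO. Mean ratios were 0.17 ± 0.19 and -0.07 ± 0.24 (SD, n = 4 each), a difference of -0.24 that did not pass a two-sided exact permutation test over the 70 groupings of the libraries (p = 0.143, smallest possible 0.0286). Within same-numbered pairs the ratio was lower in Gata2 KO in 4 of 4, by -0.14, -0.14, -0.40 and -0.29. An exact sign-swap permutation test of the pairs gave p = 0.125, the smallest that 16 swaps allow. With 4 pairs that test could not reach the threshold, so whether the Mtdh and Snd1 differences differ within pairs is not settled by it. The mean over pairs was -0.24 ± 0.12 (SD, n = 4 pairs). Without the libraries numbered 4 the 2 groups of 3 gave p = 0.1, the smallest that an exact permutation test of 20 groupings allows.

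**Figure D3:**
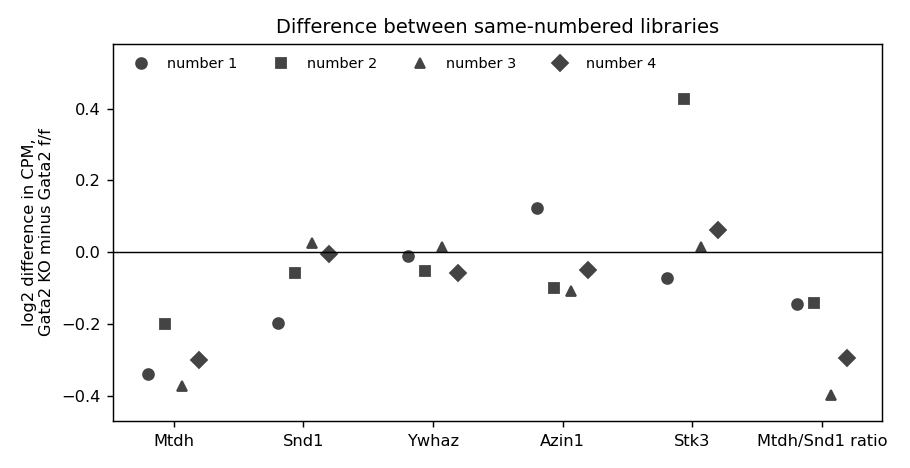
Log2 difference in CPM, Gata2 KO minus Gata2 f/f, between libraries of the same replicate number, for the 5 members and for the ratio of Mtdh to Snd1; each symbol is 1 pair. All 4 Mtdh points and all 4 ratio points lie below 0, while the points of the other members lie on both sides of it.

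Ywhaz, the 14-3-3 zeta adaptor, was nearly level across the 8 libraries. The Gata2 f/f values were 1868, 1783, 1620 and 1689 CPM. In Gata2 KO they were 1854, 1720, 1637 and 1622 CPM. Replicate 1 was the highest of each genotype, and the ranges overlapped almost fully. With means of 1740 ± 109 and 1708 ± 107 CPM (SD, n = 4 each), the edgeR log2 fold change was -0.01 ± 0.12 (SE; adjusted p 0.977). With the block, edgeR's 95% interval ran from -0.13 to 0.11 (adjusted p 0.916), so a change of the size measured for Mtdh lies outside it.

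Azin1, the antizyme inhibitor, varied with replicate number more than with genotype. Its Gata2 f/f libraries had 973, 1000, 979 and 668 CPM, and its Gata2 KO libraries 1059, 933, 909 and 646 CPM. Replicate 4 was the lowest of both genotypes, and the other 3 of each group overlapped. The means were 905 ± 158 and 887 ± 173 CPM (SD, n = 4 each). The edgeR log2 fold change was -0.01 with a wide 95% interval of -0.44 to 0.42 (adjusted p 0.985), and with the block the interval was -0.14 to 0.11 (adjusted p 0.865). Without the libraries numbered 4, edgeR's estimate was 0.00018 with an adjusted p of 0.999. A microRNA row, Mir6951, lies inside Azin1 on the same strand and held a mean of 66.9 CPM, 7.69% of the Azin1 count. Reads of the 2 rows cannot be told apart by strand. How reads that fall in both were counted is not known, so the Azin1 level is uncertain by an amount that was not measured. The rows that overlap Mtdh or Snd1 held at most 0.351 CPM, and none overlaps Ywhaz or Stk3.

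Stk3, the Hippo kinase, was the lowest of the 5, with 147 to 607 counts per library. It stood at 85.0, 91.3, 89.5 and 93.2 CPM in Gata2 f/f. In Gata2 KO it stood at 80.8, 123, 90.3 and 97.3 CPM, where replicate 2 was the highest of all 8 and replicate 1 the lowest. The Gata2 KO libraries spread more widely, with means of 89.8 ± 3.51 and 97.8 ± 17.96 CPM (SD, n = 4 each). The edgeR log2 fold change was 0.14 ± 0.13 (SE; adjusted p 0.575). With the block it was 0.12, with a 95% interval of -0.07 to 0.32 and an adjusted p of 0.331. The pair numbered 2 alone gave a log2 difference of 0.43, and the other 3 pairs lay between -0.07 and 0.06.

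Levels can be compared between genes only per length of transcript. Per kb of the longest GENCODE transcript, Ywhaz had a mean of 529 ± 33.0 CPM per kb in Gata2 f/f (SD, n = 4), Snd1 479 ± 65.4, Mtdh 293 ± 9.51, Azin1 186 ± 32.5 and Stk3 30.8 ± 1.21. In Gata2 KO the means per kb were 520 ± 32.4 for Ywhaz, 463 ± 82.9 for Snd1, 238 ± 8.24 for Mtdh, 182 ± 35.6 for Azin1 and 33.6 ± 6.16 for Stk3. The order was the same in 6 of 8 libraries. In both libraries numbered 4 Snd1 stood above Ywhaz, so with this length these neighbours in the order do not differ beyond their spread. With all annotated exons of a gene as its length, Mtdh stood behind Azin1 in the order except in the libraries numbered 4, at 132 against 145 CPM per kb of exon in Gata2 f/f. With that length Ywhaz stood above Snd1 in all 8 libraries, at 423 ± 26.4 against 186 ± 25.4 CPM per kb of exon in Gata2 f/f (SD, n = 4). The order of Mtdh and Azin1, and how far Ywhaz stands from Snd1, thus depend on which length is used. Ywhaz stayed above Mtdh and Azin1, and Stk3 lowest, in all 8 libraries with both lengths.

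Over the 8 libraries, Pearson's r of log2 CPM between Mtdh and Snd1 was 0.22, between Mtdh and Ywhaz -0.01, and between Snd1 and Azin1 -0.93. Over the 6 libraries left without those numbered 4 the same values were 0.49, -0.12 and -0.73. All of them share the libraries' totals. So Snd1 and Azin1 ran opposite to each other, and Mtdh ran with neither closely. Among 42 tested neighbours on chromosomes 15 and 6, those most like Mtdh by this measure were Impdh1 (r = 0.95), a rate-limiting enzyme of guanine nucleotide synthesis, Pop1 (0.91), a subunit of the ribonucleases that process tRNA and rRNA, and the telomere protein gene Pot1a (0.90). Wasl (0.89) and Nrf1 (0.88) were among the 3 most like Snd1. Ywhaz was most like Cox6c (0.86), Rpl30 (0.80) and Rrm2b (0.63), and Azin1 most like Zfp706 (0.93), March6 (0.86) and Rpl30 (0.77). Stk3 was most like Ahcyl2 (0.96), Gcc1 (0.67) and Copg2 (0.59). These are descriptions of 8 libraries of both genotypes. How far they rest on the libraries numbered 4, or for Stk3 on Gata2 KO replicate 2, was not tested. Impdh1, Pop1 and Pot1a had log2 fold changes of -0.85, -0.40 and -0.28, lower in Gata2 KO as Mtdh was. Their r with Mtdh includes that shared difference.

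The neighbours of Mtdh, Stk3, Ywhaz and Azin1 on chromosome 15 give a local comparison for them. Of 35 listed neighbours with a row, 22 were tested, and with genotype alone 1 rose and 1 fell in Gata2 KO while 20 did not pass. That is 9.09% of those tested, against 12.5% of all rows. The one that rose was Klf10, a zinc-finger factor induced by TGF-beta, with a log2 fold change of 0.62 (edgeR adjusted p 0.00918). The one that fell was Pop1, from 400 ± 28.5 to 300 ± 16.6 CPM (SD, n = 4 each; log2 fold change -0.40, edgeR adjusted p 0.0167). The median log2 fold change over the 22 was 0.03.

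With the replicate block 6 of the 22 rose and 6 fell, 54.5% of those tested against 35.5% of all rows. All rows were not matched to the neighbours in level, so the part of level in this gap was not tested. The 2 with the highest levels among those that fell were Pabpc1 and Cct5. Pabpc1, the poly(A)-binding protein, averaged 12430 ± 921 CPM in the Gata2 f/f and 9995 ± 1080 CPM in the Gata2 KO libraries (SD, n = 4 each). Its log2 fold change was -0.30, with an edgeR adjusted p of 0.00182 with the block and 0.181 without. Cct5, a subunit of the chaperonin that folds actin and tubulin, averaged 3713 ± 351 and 2879 ± 277 CPM (SD, n = 4 each). Its log2 fold change was -0.35, with an edgeR adjusted p of 9.4e-05 with the block and 0.139 without. The ribosomal protein gene Rpl30, Polr2k, Pop1 and Rida, a deaminase gene, were the other 4 that fell with the block. Those that rose with it were Klf10, Cpq, Rnf19a, Atp6v1c1, Vps13b and Matn2. Whether Mtdh moved with these neighbours or apart from them was not tested.

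**Figure D4:**
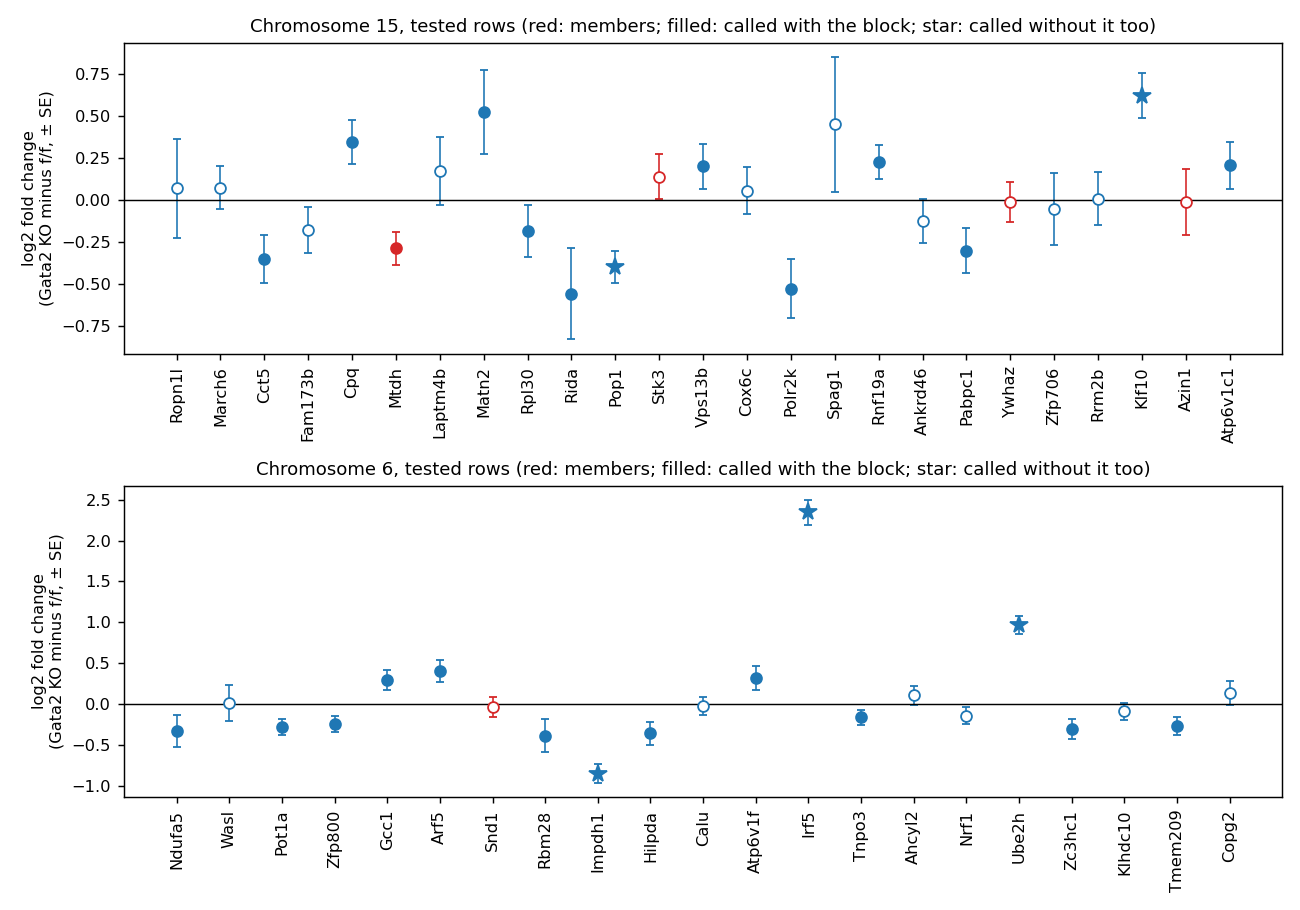
Log2 fold change (Gata2 KO minus Gata2 f/f, ± SE, edgeR with genotype alone) of tested neighbours (1 is not shown) and members (red) in chromosomal order on chromosome 15 (top) and chromosome 6 (bottom); filled symbols had an adjusted p under 0.05 with the replicate block and stars also without it. On chromosome 15, Rida at -0.56, Polr2k at -0.53, Pop1 at -0.40, Cct5 at -0.35 and Pabpc1 at -0.30 lie below Mtdh at -0.29. Snd1 at -0.03 lies near 0 while Irf5, at 2.34, is the highest point.

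Around Snd1 on chromosome 6, 36 listed neighbours had a row and 20 were tested. With genotype alone 2 rose, 1 fell and 17 did not pass, 15.0% of those tested against 12.5% of all rows. Irf5, an interferon regulatory factor of myeloid cells, rose from 51.4 ± 10.0 to 256 ± 33.8 CPM (SD, n = 4 each), and Ube2h, a ubiquitin-conjugating enzyme, from 126 ± 13.8 to 244 ± 36.2 CPM. Impdh1 fell from 212 ± 32.0 to 116 ± 12.8 CPM. With the block 5 rose and 9 fell, 14 of the 20 tested against 35.5% of all rows, again not matched in level. The median log2 fold change over the 20 was -0.12 without the block. Arf5, Gcc1 and Atp6v1f passed as higher with the block and not without it. Pot1a, Zfp800, Rbm28, Hilpda, Zc3hc1 and Tmem209 were among those that passed as lower in the same way.

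Other genes of the members' pathways lie mostly outside these stretches, where a row may not hold the gene it names, so they are given by count. The shares of all rows to set beside them are 12.5% with genotype alone and 35.5% with the block. A list of 14 known binding partners of Mtdh or Snd1 and RNA silencing genes had 6 members tested, which were Argonaute, Tnrc6 and Dicer1 rows. By edgeR 0 passed, by DESeq2 0, and 2 had an unadjusted p under 0.05. With the replicate block 3 of the 6 rows rose, including Tnrc6b at a log2 fold change of 0.47 (edgeR adjusted p 0.000524 with the block, 0.131 without). Of the 6 other 14-3-3 genes 3 were tested, and 1 rose with genotype alone, the row named Ywhaq, at a log2 fold change of 0.45 (edgeR adjusted p 0.0203). The row named Ywhab joined it with the block (0.22 without the block, edgeR adjusted p 0.173, and 0.0234 with it).

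Of 13 listed 14-3-3 clients and survival genes, 5 were tested, and 0 passed by edgeR, 0 by DESeq2 and 0 at an unadjusted p under 0.05. With the block 1 fell, the row named Mcl1, an anti-apoptotic Bcl2 relative (log2 fold change -0.24, edgeR adjusted p 0.0300 with the block and 0.209 without). None of the 12 other genes of polyamine metabolism passed the filter on low counts, and 11 of their rows had a mean under 1 CPM, so nothing can be read beside Azin1. In the Hippo list beside Stk3, 10 of 20 were tested and 1 rose, the row named Map4k4 (log2 fold change 1.28, edgeR adjusted p 0.0270). The row named Tead1 fell with the block (edgeR adjusted p 0.00952, and 0.0627 without). The medians of the tested rows were 0.19 for the first list, 0.22 for 14-3-3, 0.03 for the clients and 0.08 for Hippo, beside -0.01 for all rows.

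Markers of other cells were counted under the same doubt about names. Summed myeloid markers ran from 72.9 to 95.6 CPM in Gata2 f/f and from 65.3 to 73.6 CPM in Gata2 KO. Most of that lay in the rows named Hoxa9 and Spi1, with 8 of 13 rows under 1 CPM. Summed lymphoid markers ran from 50.0 to 63.3 and from 59.7 to 88.1 CPM, with 5 of 8 rows under 1 CPM. The 8 erythroid and megakaryocyte markers summed to between 3.86 and 8.39 CPM in Gata2 f/f and between 7.72 and 49.2 CPM in Gata2 KO, mostly in the row named Vwf, with 7 of 8 under 1 CPM and 3 at 0 counts. The stromal and endothelial list summed to between 239 and 289 and between 278 and 341 CPM, mostly in the row named Pecam1, with 6 of 8 under 1 CPM. The part of these sums in the Mtdh difference was not tested.

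The call for Mtdh changed between settings, while the size of its difference hardly moved. Over 17 other settings the Mtdh log2 fold change stayed between -0.32 and -0.26. Its adjusted p ran from 0.00029 to 0.437, and it was under 0.05 in 7 of them. In those 7 the one member past the threshold was Mtdh. Beside the shares of all rows given above for the block and DESeq2, the share past the threshold was 12.8% with library totals (4.48% lower), 22.1% without the libraries numbered 4 (8.34% lower), and 26.5% with the block as well (10.9% lower). With scaling to 15 ubiquitous rows 790 of 6580 rows passed, 210 of them as lower (3.19% of those tested). With the block on that scale 34.7% passed (15.2% lower). Leaving out 1 library at a time gave an edgeR adjusted p of 0.0534 to 0.220, above the threshold in all 8 cases.

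**Figure D5:**
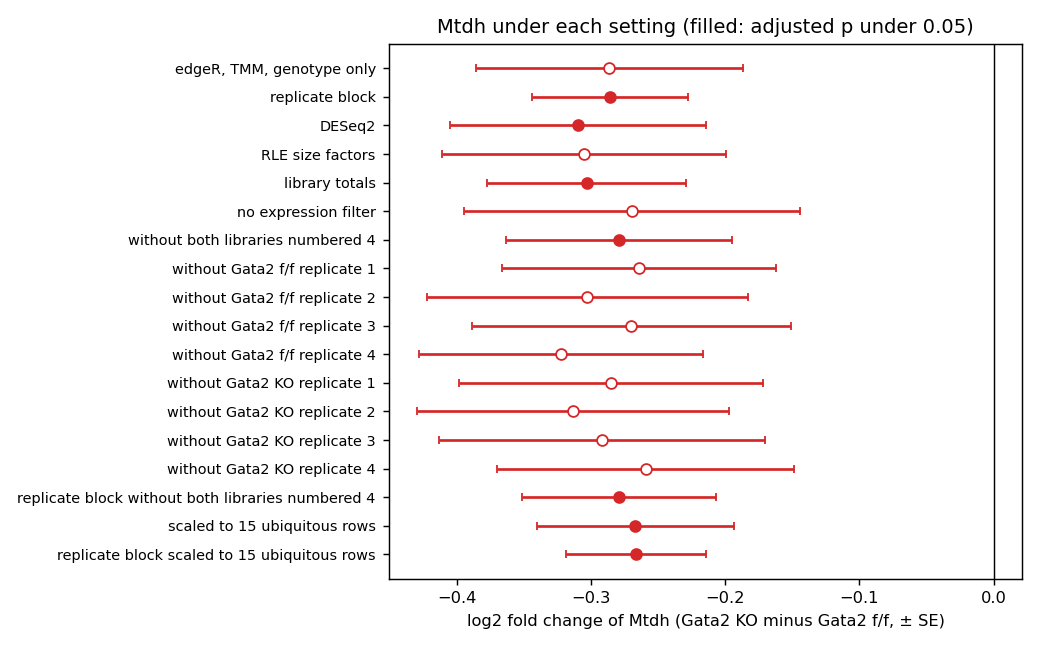
Log2 fold change of Mtdh (Gata2 KO minus Gata2 f/f, ± SE) under the main setting and 17 others; filled points have an adjusted p under 0.05. All points lie between -0.32 and -0.26, and those with the replicate block have the shortest bars.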

How the data were processed

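Poly(A) RNA of 8 libraries was sequenced as 65 bp paired reads with a kit that does not mark strand, per the labels' protocols. One table of raw counts, whole numbers per Ensembl identifier, was deposited by the authors. The submitters' processing notes name mm10, kallisto, HTSeq and DESeq2, and which of them made the counts is not given in the sources used here. Identifiers were matched without version suffix to the gene name table and to GENCODE M21 (49326 of 49585 rows, 99.5%). Row names were used as deposited. Totals ran from 1610369 to 6237748 counts, so 3 counts, what a count of 0 allows, are 0.481 to 1.86 CPM (counting error only). No libraries of 1 genotype agreed within sampling noise (chi-square over degrees of freedom 2.27 to 24.2).

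Per-library levels are CPM of the library total. Tests used edgeR 4.0.16 in R 4.3.3 (TMM, filterByExpr with a minimum count of 10, quasi-likelihood F-test, genotype only) over 6580 rows, with Benjamini-Hochberg adjustment, a threshold of 0.05 and pointwise 95% intervals, and were tested on simulated data. DESeq2 1.42.0, other scalings, no filter, and leaving libraries out were alternatives. The replicate numbers in the labels were taken to pair the libraries because deviations from the genotype means correlated in all 4 pairs (r = 0.319, 0.205, 0.233 and 0.794). The labels give no source for the pairing.

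Members and lists were chosen with earlier results of these data known. Named neighbours are those past the threshold with or without the block, at most 12 per list by adjusted p, the ubiquitous genes used to check names, and the 3 neighbours most like each member. For 1 neighbour values are not reported here, though the counts and medians include it. Of other lists at most 2 rows are named, besides the markers given with their sums.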

Additional observations from a re-analysis of the deposited data

Results flagged for a closer look

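In 60 groups of 4 libraries (the members, at most 12 neighbours per chromosome past the threshold with or without the block, and the ratio of Mtdh to Snd1, in each genotype), 8 held a highest or lowest library whose gap to the nearest of the others took up more of the group's range than Dixon's 95% critical value for 4 allows. Chance gives about 1 in 20 such groups. Of the 8, 5 were in a library numbered 4. Among the members there was 1, Azin1 in Gata2 f/f, where replicate 4 (668 CPM) gave a gap of 0.919 of the range. Rbm28, a nucleolar protein gene, was set apart in both genotypes, at 0.956 in Gata2 f/f replicate 4 (481 CPM) and 0.900 in Gata2 KO replicate 4 (397 CPM). In Gata2 f/f replicate 4 the gap was also 0.875 for Hilpda (44.5 CPM) and 0.855 for Zc3hc1 (341 CPM). The other 3 lay in Gata2 KO: Klf10 in replicate 2 (195 CPM, 0.945), Cpq in replicate 3 (61.0 CPM, 0.867) and Rnf19a in replicate 1 (158 CPM, 0.952).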

How the results depend on the processing

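In edgeR with TMM scaling and genotype alone none of the members passed. The count of members past the threshold was 1, Mtdh, with the replicate block, DESeq2, scaling to library totals, without both libraries numbered 4, and in all 3 settings added after seeing the data (the block without those libraries, scaling to 15 ubiquitous rows, and the block with that scaling). The Mtdh log2 fold changes and adjusted p were -0.29 and 0.000874 with the replicate block, -0.31 and 0.0159 by DESeq2, -0.30 and 0.0219 with library totals, -0.28 and 0.0239 without the libraries numbered 4, -0.28 and 0.0099 with the block as well, -0.27 and 0.0377 scaled to the ubiquitous rows, and -0.27 and 0.00029 with the block on that scale. The 15 ubiquitous rows lie near the members on chromosomes 15 and 6. By edgeR with TMM scaling 1 of them rose with genotype alone, and 4 rose and 7 fell with the block. That scale may thus itself differ with genotype. The adjusted p of Mtdh stayed above the threshold with RLE size factors (-0.31, 0.0851), with no filter (-0.27, 0.437) and with each library left out (-0.32 to -0.26). Of all rows tested, 822 passed, against 2339 with the replicate block, 1437 without the libraries numbered 4, 1727 with both changes and 2286 with the block and ubiquitous scaling (548 to 1103 with 1 library left out). Chromosome 15 neighbours past the threshold numbered 12, 5, 8 and 12 in those settings and 1 to 4 with 1 library left out, against 2. The count was 1 without Gata2 f/f replicate 2 or 3 or Gata2 KO replicate 3, and 4 without Gata2 f/f replicate 4. For chromosome 6 they numbered 14, 9, 12 and 13 against 3, and 3 to 6 with 1 library left out, the 6 without Gata2 KO replicate 4.

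Estimates near 0 changed sign, none past the threshold: Ywhaz to 0.0057 with no filter, 0.0073 without the libraries numbered 4, 0.0097 with the block as well, 0.012 scaled to the ubiquitous rows and 0.010 with the block on that scale; Azin1 to 0.0052, 0.00018, 0.0096 and 0.0035 in the first 2 and last 2 of these. With 1 library left out Snd1 ran from -0.119 to 0.0386, Ywhaz from -0.0733 to 0.0586 and Azin1 from -0.163 to 0.136. Stk3 ran from 0.0088 without Gata2 KO replicate 2 to 0.1996 without Gata2 KO replicate 1, so most of its estimate of 0.14 rests on the first of these libraries. The causes were not tested. Depth limits Stk3 most, at 147 counts in the smallest library.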
